A study of Mus musculus with 30 samples.

Results

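Mouse embryonic stem (ES) cells that received doxycycline (Dox) for 6 hours were compared with cells kept for the same 6 hours in N2B27 medium without it, both at ambient oxygen. The members are the 4 samples whose titles name N2B27 with Dox and the 4 whose titles name N2B27 alone, 8 of the 28 samples of the series, on 10 of its 30 Illumina BeadChip arrays. Dox samples 3 and 4 were each measured on 2 arrays, which were averaged. The Dox cells received doxycycline at 2 ug/ml, and cells of both groups came from the Ainv15 line, were plated at 2000000 per dish on gelatin and were moved to the serum-free medium N2B27. As known of this line, every cell carries a reverse tetracycline transactivator and a doxycycline-responsive promoter in front of 1 inserted gene. As known of the study, the inserted gene encodes the intracellular domain of Notch1, although the labels do not name it. The N2B27 cells carry the same insert without the drug. No cells lacking the insert were given doxycycline, so effects of the drug and of the induced gene cannot be told apart. The values of 3 further groups of 4 samples are set beside these: N2B27 under 1% oxygen (1% O2), the same with doxycycline at 2 ug/ml (1% O2+Dox), and N2B27 at ambient oxygen with DAPT, an inhibitor of gamma-secretase, at 2.5 ng/ml and also for 4 hours ahead in ES cell medium. The other 2 groups, cells in ES cell medium and cells with DAPT under 1% oxygen, are not compared here. They enter the shared normalization, the choice of probes, the replicate block and the estimate of spread.

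Notch is a receptor that a ligand on a neighbouring cell activates. Cleavage by gamma-secretase then frees its intracellular domain, which enters the nucleus, binds the DNA-binding protein RBPJ with Mastermind-like coactivators, and switches on target genes. Classical targets are the Hes and Hey genes, whose basic helix-loop-helix (bHLH) proteins repress transcription, and genes that feed back on the pathway itself. In embryonic neural tissue Hes proteins hold back the bHLH activators that drive neuronal differentiation. In ES cells Notch activity is known to favour neural progenitor fate once serum and LIF are withdrawn.

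Levels below are log2 intensities after background correction and quantile normalization, always listed for replicates 1, 2, 3 and 4. A change is Dox minus N2B27 on that scale with its standard error (SE) from a limma model of all 28 samples that holds the replicate number as a block. A gene was called changed where its Benjamini-Hochberg adjusted p over 9826 genes was under 0.05. Replicates 1 and 2 stood apart from replicates 3 and 4 in every group along the first principal component, which held 51.5% of the variance. The labels call the samples biological replicates without saying that they were separate cultures. The SD of the log2 difference was 0.248 between Dox samples 3 and 4, beside 0.213 and 0.233 between the 2 arrays of 1 sample, so p-values measure a spread that may in part be technical. A lower level in these bulk samples can come from fewer cells of a type or from less RNA per cell, which cannot be told apart.

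Between Dox and N2B27 cells 170 of 9826 genes differed (1.73%), of which 100 were higher (1.02%) and 70 lower (0.712%) in Dox. Of the called genes, 19 were at least 2-fold higher in the fit (0.193% of all genes) and 3 at least 2-fold lower (0.0305%). For 7 of the rises and 7 of the falls all samples of 1 group were at background, so their fitted sizes are not measured, and without them these counts were 16 and 2. Among genes above background in both groups the largest rise was that of Nrarp (3.45) and the largest fall that of Hoxa5 (-1.18). All 100 rises were positive in 4 of 4 pairs, as were 810 of all genes (8.24%), and 69 of the 70 falls were negative in 4 of 4 pairs, as were 933 of all genes (9.5%), with Tgfbi as the exception. Every Dox sample lay above every N2B27 sample for 51 of the 100 rises, beside 0.967% of all genes, and below for 29 of the 70 falls, beside 0.723%. Without the replicate block 33 genes were called, 22 higher and 11 lower, all among the 170. Of 54 called genes named by rule, 33 lost their call without the block, and those that kept it were Nrarp, Hes5, Sox9, Trh, Hey1, Id4, Cntnap2, Efna1, Has3, Higd1b, Slc2a1, Hes1, Notch1, Insm1, Pou3f1, Ccdc160, Sertad4, Gbx2, Ccno, Tal2 and Sertad1. Within replicates 1 and 2 the count was 66 and within replicates 3 and 4 it was 38. No gene's change differed between these sets of replicates in limma's interaction test (0 of 9826, with 528 at an unadjusted p under 0.05, which is 5.37%).

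**Figure D1:**
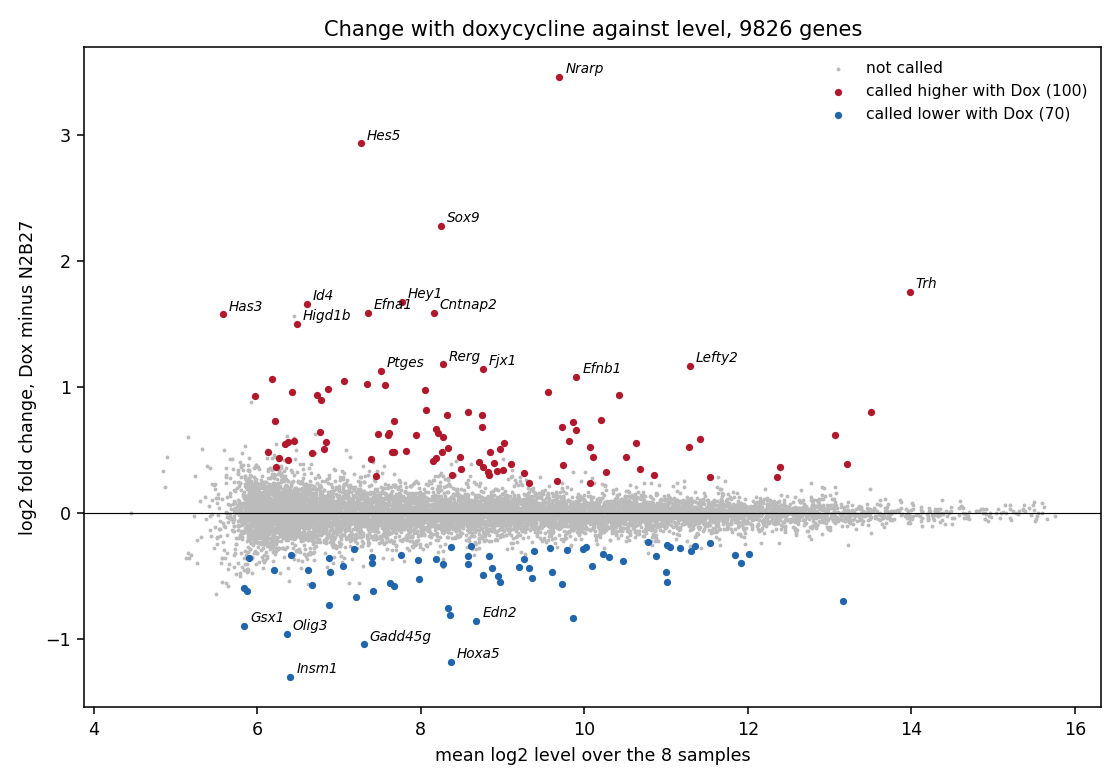
Each point is 1 of 9826 genes, with its mean log2 level over the 8 samples on the x axis and its log2 change, Dox minus N2B27, on the y axis; red marks the 100 genes called higher, blue the 70 called lower and grey the others. Nrarp (3.45), Hes5 (2.93) and Sox9 (2.27) stand clear of all other genes, and Hoxa5 (-1.18) has the deepest fall among genes above background in both groups; Insm1, Olig3, Gsx1, Has3 and Higd1b were at background in all samples of 1 group, so their heights here are not measured sizes.

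The 3 largest rises were Nrarp, Hes5 and Sox9. All 3 are on a list of Notch targets that was written with earlier results of these arrays in view. Their place on it is thus no independent evidence. The core of the DNA site that RBPJ binds is TGGGAA. The start regions of Nrarp, Hes5 and Id4, 3 of the 6 largest rises in the main fit, are shown to see whether these letters occur there. Of the others, Sox9 and Hey1 had no start region in the set used, and that of Trh is not shown. Each runs from 250 bases before the transcription start to 50 after it, on the + strand of GRCm38.p6 as RefSeq places the start. The positions are chr2:25180508-25180807 for Nrarp, chr4:154960673-154960972 for Hes5 and chr13:48260866-48261165 for Id4. Capitals mark TGGGAA or, for a site on the opposite strand, TTCCCA.
Nrarp: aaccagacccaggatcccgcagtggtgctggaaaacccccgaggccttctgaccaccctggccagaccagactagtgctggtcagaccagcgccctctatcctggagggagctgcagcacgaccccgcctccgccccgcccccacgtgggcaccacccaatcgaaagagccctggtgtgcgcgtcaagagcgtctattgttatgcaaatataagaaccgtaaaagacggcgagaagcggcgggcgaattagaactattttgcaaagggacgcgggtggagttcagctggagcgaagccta
Hes5: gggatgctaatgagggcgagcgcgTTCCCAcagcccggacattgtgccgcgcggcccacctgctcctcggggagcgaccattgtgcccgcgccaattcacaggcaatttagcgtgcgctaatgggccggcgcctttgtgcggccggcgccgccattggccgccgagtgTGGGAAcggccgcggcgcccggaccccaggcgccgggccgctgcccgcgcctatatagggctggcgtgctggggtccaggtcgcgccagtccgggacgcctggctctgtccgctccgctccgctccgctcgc
Id4: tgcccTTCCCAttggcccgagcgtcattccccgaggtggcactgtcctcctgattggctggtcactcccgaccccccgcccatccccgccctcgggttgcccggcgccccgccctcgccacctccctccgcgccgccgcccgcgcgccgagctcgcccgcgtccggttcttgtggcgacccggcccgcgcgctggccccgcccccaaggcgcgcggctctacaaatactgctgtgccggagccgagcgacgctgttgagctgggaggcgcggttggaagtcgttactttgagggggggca
The window of Hes5 holds 2 matches, whose first bases lie at -226 and -82 from the start, on opposite strands. That of Id4 holds 1, at -245, and that of Nrarp holds 0. TGGGAA occurred, on either strand, in 2114 of 7964 windows of genes tested (26.5%), in 22 of 73 windows of genes called higher (30.1%) and in 9 of 52 of genes called lower (17.3%). The longer GTGGGAA, which contains it, occurred in 7.14%, 9.59% (7 of 73) and 7.69% (4 of 52) of these windows. The share among raised genes was thus near that of all genes tested, and a match is a run of letters, not a measured binding site.

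Within the pathway, 9 of 20 measured Notch targets rose, 1 fell and 10 were not called, and none of the cleavage and nuclear complex genes was called. Over all genes tested 1.02% rose and 0.712% fell, the shares to set beside this and every later list count. Members of all lists were chosen with earlier results of these data known, so no list count is independent evidence of direction. Nrarp encodes an ankyrin repeat protein that binds the intracellular domain and dampens its activity. Its levels were 12.45, 11.25, 11.18 and 10.80 in Dox samples, against 8.32, 7.96, 8.03 and 7.56 in N2B27 samples. The lowest Dox sample lay far above the highest N2B27 sample, and the change of 3.45 ± 0.19 (10.95-fold, adjusted p = 4.01e-11) was the largest of all genes tested. The Notch1 probe read 10.24, 9.97, 10.36 and 10.33 in Dox samples, against 9.35, 9.44, 9.82 and 9.67 in N2B27 samples, without overlap (0.66 ± 0.08, adjusted p = 7.01e-06). Whether that probe reads the inserted sequence cannot be told from the files, and its rise is no check of the induction. Jag1, a Notch ligand, stood at 7.57, 6.57, 8.20 and 8.02 in Dox samples, against 6.78, 5.55, 7.19 and 6.64 in N2B27 samples. The groups overlapped, with replicate 2 low in both, while each Dox sample exceeded its own partner (1.05 ± 0.18, adjusted p = 0.00129). Dtx1, a Deltex ubiquitin ligase that binds Notch, also rose (0.64 ± 0.12, adjusted p = 0.00217), with Dox levels of 7.80 to 8.06 above N2B27 levels of 6.79 to 7.56.

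Of 10 receptors and ligands measured, Jag1 and Notch1 were higher and 0 lower, with a list median of -0.00 against -0.01 over all genes tested. The ligand gene Dll1, above background in 0 of 4 Dox and 2 of 4 N2B27 samples, was not called (adjusted p = 0.0578). Its measured mean was at least 1.03-fold lower in Dox, a value without an error. Among 14 modifiers, which glycosylate, ubiquitinate or sort Notch, Nrarp and Dtx1 were the 2 called, both higher (median 0.02). None of the 16 genes for cleavage and the nuclear complex was called (0 of 16, median 0.04), and Rbpj itself stood at 0.15 ± 0.11 (adjusted p = 0.819). The wider list of Notch targets had a median of 0.34, or 0.09 with Rhov, its member at background in all N2B27 samples, at its bound. That list shares Notch1, Jag1, Nrarp and Dtx1 with the lists above and was written with earlier results of these arrays in view, so its count is not independent evidence of direction. Members of it that were not called include Rhov (adjusted p = 0.0872), Myc (-0.42 ± 0.11, adjusted p = 0.0543) and Cdkn1a (-0.21 ± 0.09). Rhov was above background in 2 of 4 Dox and 0 of 4 N2B27 samples, with a measured mean at least 1.10-fold higher in Dox.

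**Figure D2:**
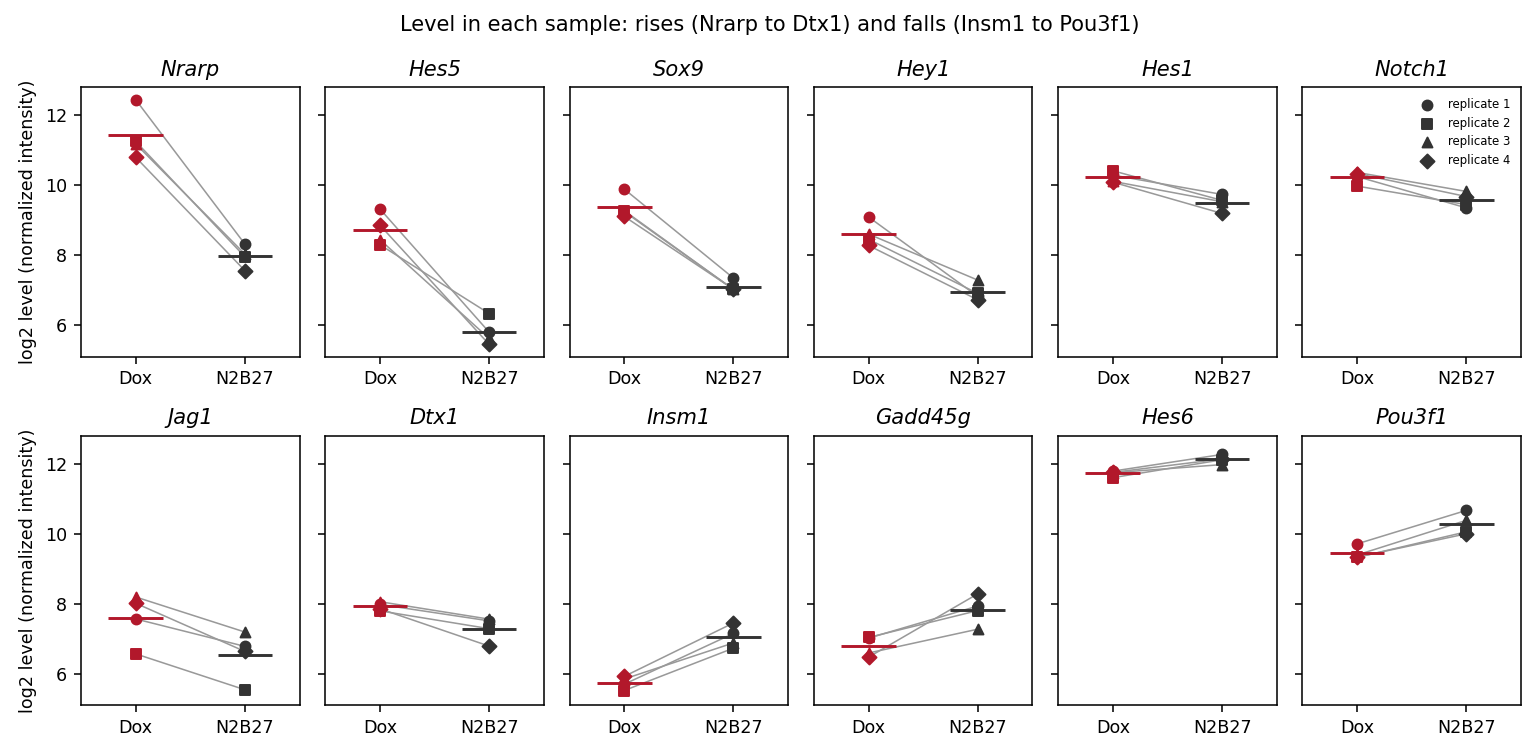
Log2 level of 12 genes in each sample, Dox on the left and N2B27 on the right of each panel, with symbols for the 4 replicate numbers, grey lines joining pairs and bars at the group means. Nrarp, Hes5, Sox9, Hey1, Hes1, Notch1, Jag1 and Dtx1 are higher in Dox in every pair, and Insm1, Gadd45g, Hes6 and Pou3f1 are lower in every pair.

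The bHLH repressors and the Id genes, whose proteins bind bHLH activators and keep them off DNA, changed in both directions. Of 10 measured, 6 rose and 2 fell, beside 1.02% and 0.712% of all genes tested, with a median of 0.70. Hes5 levels were 9.32, 8.30, 8.45 and 8.86 in Dox samples, against 5.80, 6.33, 5.62 and 5.45 in N2B27 samples. All 4 Dox samples and 1 of 4 N2B27 samples lay above background, and the groups were far apart (2.93 ± 0.22, adjusted p = 6.31e-09). Hey1 rose by 1.67 ± 0.16 (adjusted p = 3.61e-07), with 9.09, 8.45, 8.60 and 8.28 in Dox samples, against 6.82, 6.91, 7.29 and 6.73 in N2B27 samples. The change of Hes1 was smaller. It stood at 10.29, 10.41, 10.11 and 10.09 in Dox samples, against 9.73, 9.56, 9.53 and 9.19 in N2B27 samples, without overlap (0.72 ± 0.08, adjusted p = 3e-06). Hes6, whose product is known to counteract Hes1, went the other way. Its levels were 11.79, 11.60, 11.74 and 11.75 in Dox samples, against 12.26, 12.11, 11.97 and 12.14 in N2B27 samples, and again the groups did not overlap (-0.40 ± 0.08, adjusted p = 0.00824, and 0.0547 without Dox replicate 1).

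The Id genes split. Id4 stood at 7.51, 6.83, 7.93 and 7.46 in Dox samples, against 6.25, 6.15, 5.69 and 5.02 in N2B27 samples, of which 1 lay above background (1.65 ± 0.23, adjusted p = 7.92e-05). Its change was 0.96 within replicates 1 and 2 and 2.34 within replicates 3 and 4. Over all replicates it was 1.08 with an offset of 50 in the background correction, so its size is uncertain too. Id1 (0.73 ± 0.10, adjusted p = 4.44e-05) and Id3 (0.68 ± 0.09, adjusted p = 3.98e-05) also rose, higher in 4 of 4 pairs each although their groups overlapped. Id2 instead fell to 7.90, 7.16, 7.78 and 8.02 in Dox samples, against 8.57, 7.61, 8.35 and 8.42 in N2B27 samples (-0.52 ± 0.09, adjusted p = 0.00138). The 4 Id genes are also classical targets of BMP, a secreted signal of the TGF-beta family. They were the only called members among 16 BMP pathway genes (3 higher, 1 lower, median -0.04). Smad1, a signal carrier for BMP named here after its values were seen, was lower by a small margin (-0.31 ± 0.07, adjusted p = 0.0278).

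Some genes of neuronal commitment were lower with doxycycline. Of 16 proneural and neurogenic genes measured, 4 fell and 0 rose, beside 0.712% and 1.02% of all genes tested. Their median was -0.21, or -0.12 with the 4 members at background in all samples of a group at their bound. Insm1, a zinc finger factor of neuronal and neuroendocrine precursors, read 5.70, 5.52, 5.85 and 5.93 in Dox samples, against 7.15, 6.73, 6.88 and 7.45 in N2B27 samples. All 4 Dox samples were at background and all 4 N2B27 samples above it, so it was at least 1.78-fold lower (adjusted p = 3.34e-07). Gadd45g, a small stress and growth arrest protein active in neuronal precursors, stood at 7.02, 7.04, 6.59 and 6.48 in Dox samples, against 7.94, 7.81, 7.28 and 8.29 in N2B27 samples (-1.04 ± 0.17, adjusted p = 0.000499). The bHLH gene Tal2 was lower without overlap (-0.56 ± 0.10, adjusted p = 0.00113), and Hes6 was the other. Olig3, a bHLH gene of the dorsal spinal cord that was not on the list, was above background in 0 of 4 Dox and 4 of 4 N2B27 samples and at least 1.53-fold lower (adjusted p = 2.8e-05). Neurod1 (-0.20 ± 0.09), Elavl3 (-0.23 ± 0.10) and Tubb3 (0.15 ± 0.10) were not called.

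Progenitor genes gave a mixed picture. Nes, the intermediate filament nestin of neural progenitors, rose to 8.02, 7.41, 7.84 and 8.16 in Dox samples, against 7.28, 6.43, 6.68 and 6.96 in N2B27 samples (1.02 ± 0.21, adjusted p = 0.0061). Pou3f1, a POU factor of epiblast and early neural cells, fell to 9.71, 9.32, 9.39 and 9.33 in Dox samples, against 10.67, 10.06, 10.38 and 10.00 in N2B27 samples (-0.84 ± 0.10, adjusted p = 7.01e-06). With Gbx2 these were the 3 called of 12 neural progenitor genes (1 higher, 2 lower, median 0.05). Otx1 stood at 0.62 ± 0.16 with an adjusted p of 0.0503 and was not called. Sox9, an HMG-box factor of neural stem cells, neural crest and cartilage, was the single call among 11 SoxE and neural crest genes (median -0.07). Its levels were 9.89, 9.27, 9.25 and 9.11 in Dox samples, against 7.35, 7.02, 7.02 and 7.03 in N2B27 samples, a change of 2.27 ± 0.14 (4.84-fold, adjusted p = 2.76e-10).

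Several homeobox genes, which pattern the body axis and the brain, were among the largest falls, and they are set together here after their values were seen, with no list or test of homeobox genes as a class. Hoxa5 read 8.001, 6.85, 8.18 and 8.06 in Dox samples, against 9.25, 8.05, 9.35 and 9.16 in N2B27 samples. Replicate 2 was low in both groups, and the pair differences were close to each other (-1.18 ± 0.09, adjusted p = 7.55e-09). Hoxa7 (-0.62 ± 0.11) and Hoxb5 (-0.42 ± 0.11, adjusted p = 0.0405) were the other 2 called of 18 Hox genes measured, of which 0 rose (median -0.11). The engrailed genes of the midbrain and hindbrain were both lower, En2 by a change of -0.76 ± 0.09 without overlap and En1 by -0.57 ± 0.13 with overlap (adjusted p of 7.88e-06 and 0.0202). En1 was above background in 2 of 4 Dox and 4 of 4 N2B27 samples, and its other probe changed by -0.33. Gsx1, a forebrain homeobox gene, was above background in 0 of 4 Dox and 3 of 4 N2B27 samples and at least 1.04-fold lower (adjusted p = 0.0185). The caudal genes parted, with Cdx1 higher (0.47 ± 0.12, adjusted p = 0.0298) and Cdx2 lower (-0.34 ± 0.07, adjusted p = 0.0104). On leaving out single samples the call of Cdx1 ended on 7 of 8 omissions, those of En1 and Gsx1 on 4 and that of Cdx2 on 2, with adjusted p of up to 0.193, 0.127, 0.114 and 0.0657.

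**Figure D3:**
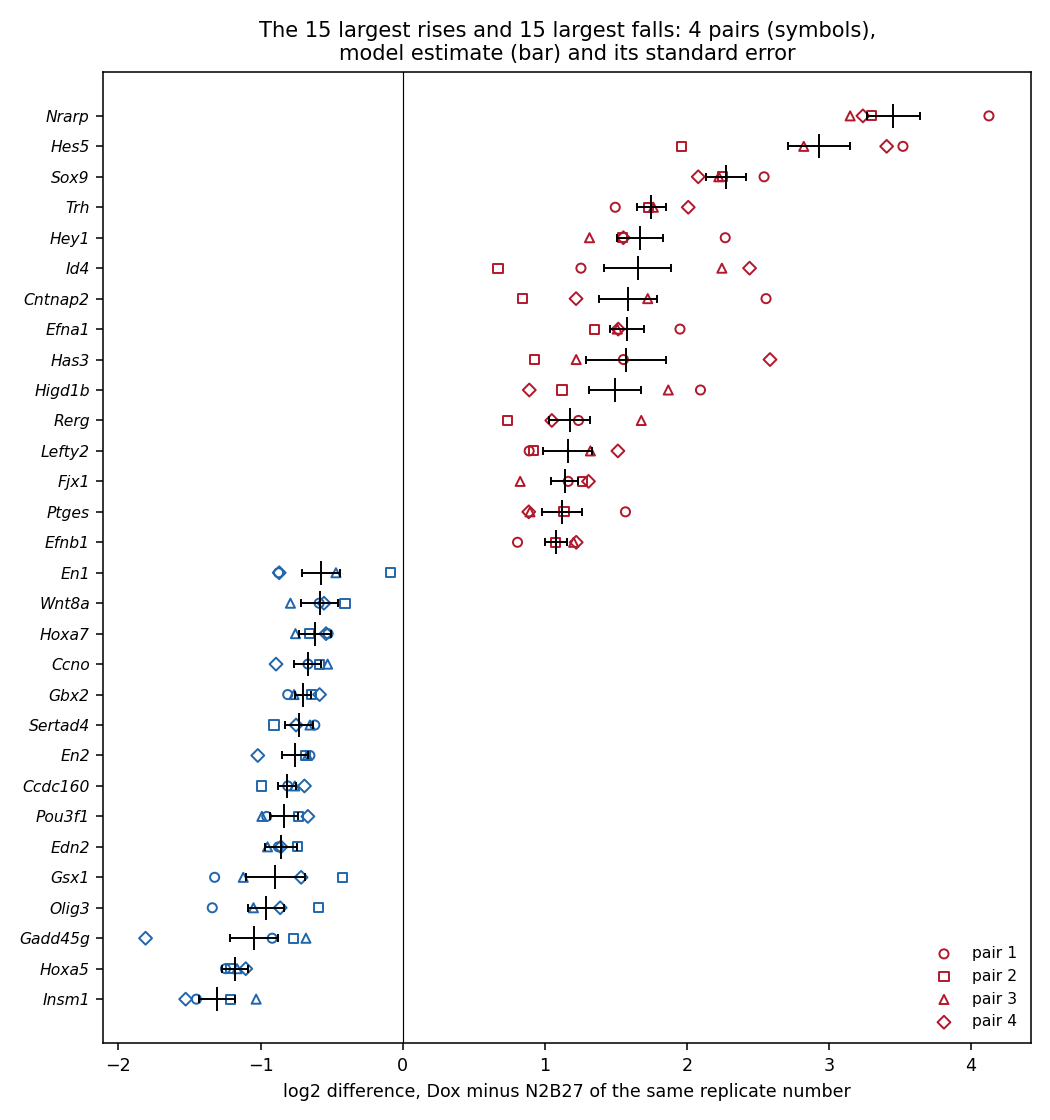
For the 15 largest rises (red) and 15 largest falls (blue), symbols give the log2 difference of each of 4 pairs of the same replicate number, Dox minus N2B27, and the bar with whiskers gives the model estimate with its standard error. Every pair lies on the side of the estimate; Nrarp differences run from 3.15 to 4.13, and those of Hoxa5 cluster near -1.18. Insm1, Olig3, Gsx1, Has3 and Higd1b were at background in all samples of 1 group, so their differences are not measured sizes.

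Among secreted signals and their regulators, 2 or 3 genes were called in each pathway list. Lefty2, a secreted inhibitor of Nodal, stood at 12.60, 12.33, 11.79 and 10.75 in Dox samples, against 11.71, 11.41, 10.47 and 9.24 in N2B27 samples. Levels differed more between replicates than between the groups, so the groups overlapped while all 4 pairs were positive (1.16 ± 0.17, adjusted p = 0.000136). Fst, the activin antagonist follistatin, fell (-0.47 ± 0.10, adjusted p = 0.00733), and the other 11 of 13 Nodal and activin genes were not called (median -0.01). Of 22 Wnt targets and regulators the ligand gene Wnt8a fell (-0.58 ± 0.13, adjusted p = 0.0128) and Cdx1 rose (median -0.05). Of 20 FGF and ERK genes the growth factor gene Fgf15 (0.61 ± 0.11, adjusted p = 0.00113) and the immediate early gene Egr1 (0.51 ± 0.12, adjusted p = 0.0199) rose. Dusp4, a phosphatase that switches off MAP kinases, fell to 9.55, 9.50, 9.32 and 9.40 in Dox samples, against 10.14, 9.94, 9.91 and 10.04 in N2B27 samples (-0.56 ± 0.09, adjusted p = 0.000716). Its relative Dusp1, named after its values were seen, was higher (0.52 ± 0.08, adjusted p = 0.000233). Edn2, which encodes the vasoactive peptide endothelin 2, was lower in every Dox sample than in its partner and without overlap (-0.86 ± 0.11, adjusted p = 4.16e-05). On leaving out single samples, Egr1 lost its call on 4 of 8 omissions, Wnt8a on 3 and Fst on 1, with adjusted p of up to 0.102, 0.0617 and 0.0581.

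Ephrins, membrane-bound ligands for Eph receptor kinases, included 2 large rises. Efna1 stood at 8.69, 8.04, 8.38 and 7.44 in Dox samples, against 6.74, 6.69, 6.87 and 5.93 in N2B27 samples, with no overlap (1.58 ± 0.12, adjusted p = 7.23e-09). Efnb1 read 11.12, 10.19, 10.30 and 10.15 in Dox samples, against 10.32, 9.11, 9.10 and 8.92 in N2B27 samples. Replicate 1 was high in both groups, so the ranges overlapped while the pairs did not differ in sign (1.08 ± 0.08, adjusted p = 5.67e-09). Epha2, a receptor known to bind Efna1, was lower (-0.44 ± 0.09, adjusted p = 0.0101). The other 11 of 14 family members measured were not called, and the list median was 0.01. Without Dox replicate 1 the adjusted p of Epha2 was 0.0743, and its call ended on 2 of 8 omissions.

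The remaining large rises encode proteins of varied kinds. Trh, the precursor of thyrotropin-releasing hormone, read 15.27, 14.87, 14.74 and 14.55 in Dox samples, against 13.77, 13.14, 12.98 and 12.54 in N2B27 samples. Every Dox sample lay above every N2B27 sample, at 3.37-fold (1.75 ± 0.10, adjusted p = 7.26e-11). Cntnap2, a neurexin-family adhesion protein of axons, stood at 9.66, 8.52, 9.08 and 8.53 in Dox samples, against 7.11, 7.68, 7.35 and 7.31 in N2B27 samples (1.59 ± 0.20, adjusted p = 2.42e-05). It was the 1 call among 12 adhesion and axon guidance genes (median -0.07). Higd1b, a mitochondrial membrane protein, was above background in 4 of 4 Dox and 0 of 4 N2B27 samples and at least 2.02-fold higher (adjusted p = 1.47e-05). Has3, a hyaluronan synthase, was above background in 3 of 4 Dox and 0 of 4 N2B27 samples and at least 1.11-fold higher (adjusted p = 0.00151). Probes were kept if above their sample's median in at least 4 samples of any group. Genes this dim in N2B27 could thus pass through doxycycline samples alone. With no filter on dim probes Higd1b and Has3 were still called. In the authors' processed values, which stop at a floor, the calls of Higd1b (adjusted p = 0.0874) and Has3 (0.675) ended, as did those of Insm1 (0.0740) and Olig3 (0.530), and Gsx1 lay at the floor in both groups. Fjx1, the mammalian relative of fly four-jointed, changed by 1.14 ± 0.09, the Ras-like GTPase gene Rerg by 1.18 ± 0.14 and Ptges, which makes prostaglandin E, by 1.12 ± 0.14 (adjusted p of 2.66e-08, 1.39e-05 and 1.4e-05).

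Other called rises near or above 0.8 on the log2 scale, named after their values were seen, spanned signalling, membrane and cytoskeletal genes. Spsb1, a SOCS-box substrate adaptor of ubiquitin ligases, stood at 10.56, 10.05, 9.91 and 9.64 in Dox samples, against 9.26, 9.16, 8.92 and 8.98 in N2B27 samples (0.96 ± 0.10, adjusted p = 9.15e-07). Its relative Spsb4 also rose (0.55 ± 0.08), and the other 2 of 4 Spsb genes measured were not called. Prickle1, a planar cell polarity protein, rose by 0.94 ± 0.11, the microtubule-associated Eml1 by 0.98 ± 0.09 and Lrig1, a membrane inhibitor of growth factor receptors, by 0.78 ± 0.10. The chemokine gene Cxcl1 changed by 0.90 ± 0.14 and the axon guidance gene Rgma by 0.82 ± 0.14. Gadd45b rose (0.62 ± 0.11, adjusted p = 0.00147) while its relatives Gadd45g and Gadd45a fell, Gadd45a by a small margin (-0.24 ± 0.06, adjusted p = 0.0385). Among smaller falls outside the lists were Lmo4, a LIM-domain cofactor (-0.55 ± 0.07), and Phf6, a chromatin-associated zinc finger protein (-0.55 ± 0.07).

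Further called rises are named here after their values were seen, with no list behind them. Wfdc2, a secreted protein of epithelia, read 13.54, 13.60, 13.32 and 13.05 in Dox samples, against 12.84, 12.94, 12.93 and 12.33 in N2B27 samples. The groups did not overlap (0.62 ± 0.06, adjusted p = 7.86e-07), and the change under 1% oxygen was 0.64 ± 0.06. Muc1, a membrane mucin, rose by 0.62 ± 0.09 and Jup, the junction protein plakoglobin, by 0.30 ± 0.05, both without overlap. Krt14, a keratin of basal epithelia, was above background in 2 of 4 Dox and 1 of 4 N2B27 samples (0.48 ± 0.11, adjusted p = 0.0145), and it was the 1 call among 13 keratin genes measured. Ttyh1, a membrane protein of neural progenitors, stood at 9.12, 9.17, 8.84 and 8.78 in Dox samples, against 8.21, 8.24, 8.05 and 8.19 in N2B27 samples (0.80 ± 0.08, adjusted p = 1.52e-06). Among receptor genes the rises were 0.43 ± 0.10 for Cxcr4, a chemokine receptor, and 0.43 ± 0.10 for Tgfbr2, a receptor of TGF-beta. Tec, a non-receptor tyrosine kinase, and Slc6a7, a proline transporter, were above background in all 4 Dox samples and in 0 of 4 N2B27 samples, at least 1.41-fold and at least 1.61-fold higher (adjusted p = 0.0164 and 6.12e-05). Like Has3, they could pass the filter on dim probes through doxycycline samples alone.

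Growth and cell death genes gave few calls. Of 36 cell cycle genes measured 4 fell and 0 rose, beside 0.712% and 1.02% of all genes tested, with a median of -0.04. The 4 were Ccno, Sertad4, Sertad1 and Cdkn1c, on a list chosen with earlier results of these data known. The count is thus no independent evidence that cell cycle genes fell as a class. Ccno, an atypical cyclin known from multiciliated cells, stood at 6.90, 6.76, 6.93 and 6.87 in Dox samples, against 7.57, 7.35, 7.46 and 7.77 in N2B27 samples (-0.67 ± 0.09, adjusted p = 8.47e-05). Sertad4 (-0.73 ± 0.10, adjusted p = 4.44e-05) and Sertad1 (-0.50 ± 0.08, adjusted p = 0.000682), members of a family of E2F coregulators, were lower without overlap. Cdkn1c, an inhibitor of cyclin-dependent kinases, was the other (-0.30 ± 0.07, adjusted p = 0.0169). Of 16 p53 targets the pro-apoptotic Pmaip1 rose (0.64 ± 0.10, adjusted p = 0.000242) and Gadd45a fell (median -0.04). The lists of the integrated stress response (0 of 24) and of cholesterol synthesis and uptake (0 of 17) held no call in limma. The call of Cdkn1c ended on 4 of 8 omissions and that of Gadd45a on all 8.

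The pluripotency network was largely uncalled over these 6 hours. Of 26 pluripotency genes measured 2 fell and 0 rose by their brightest probe, beside 0.712% and 1.02% of all genes tested, with a median of -0.05. Gbx2, a homeobox gene that LIF and STAT3 maintain, read 12.85, 12.64, 12.79 and 12.99 in Dox samples, against 13.66, 13.28, 13.55 and 13.57 in N2B27 samples, without overlap (-0.70 ± 0.06, adjusted p = 2.66e-08). Klf2, a Krüppel-like factor of naive ES cells, changed by -0.42 ± 0.07 (adjusted p = 0.000916). Of 20 LIF and STAT3 genes Gbx2 and the AP-1 subunit gene Junb were lower (Junb -0.27 ± 0.07, adjusted p = 0.0308, a call that ended on 6 of 8 omissions), with a median of -0.10 against -0.01 over all genes. Of 18 epiblast and early lineage regulators 1 was higher and 3 lower, the genes Cdx1, Cdx2, Fst and Pou3f1 given above (median -0.04). Nanog stood at 0.20 ± 0.07 (adjusted p = 0.269), Pou5f1 at 0.13 ± 0.07 (0.636) and Sox2 at 0.11 ± 0.10 (0.892), none of them called. With the mean of all its probes Nanog was called higher (0.26, adjusted p = 0.0245). The Sox2 probe read 9.00 and 8.84 in Dox replicates 1 and 2 and 11.17 and 11.20 in Dox replicates 3 and 4, against 9.20 and 8.70, and 10.97 and 10.90, in N2B27 samples. The sets of replicates thus differed at this gene by far more than the groups did.

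All 11 ES cell markers on the array were above background in all 8 samples, and their summed signal was 46820 to 53160 in Dox samples and 47500 to 51430 in N2B27 samples. Of 18 fibroblast markers on the array 8 were above background in all samples of each group, 6 were so in no Dox sample and 5 in no N2B27 sample. The fibroblast sum spanned 6806 to 17770 in Dox samples and 6740 to 17550 in N2B27 samples. Neuronal markers summed to 949 to 1577 in Dox samples and 1053 to 1668 in N2B27 samples. None of these 3 lists held a called gene and their ranges overlapped between groups.

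**Figure D4:**
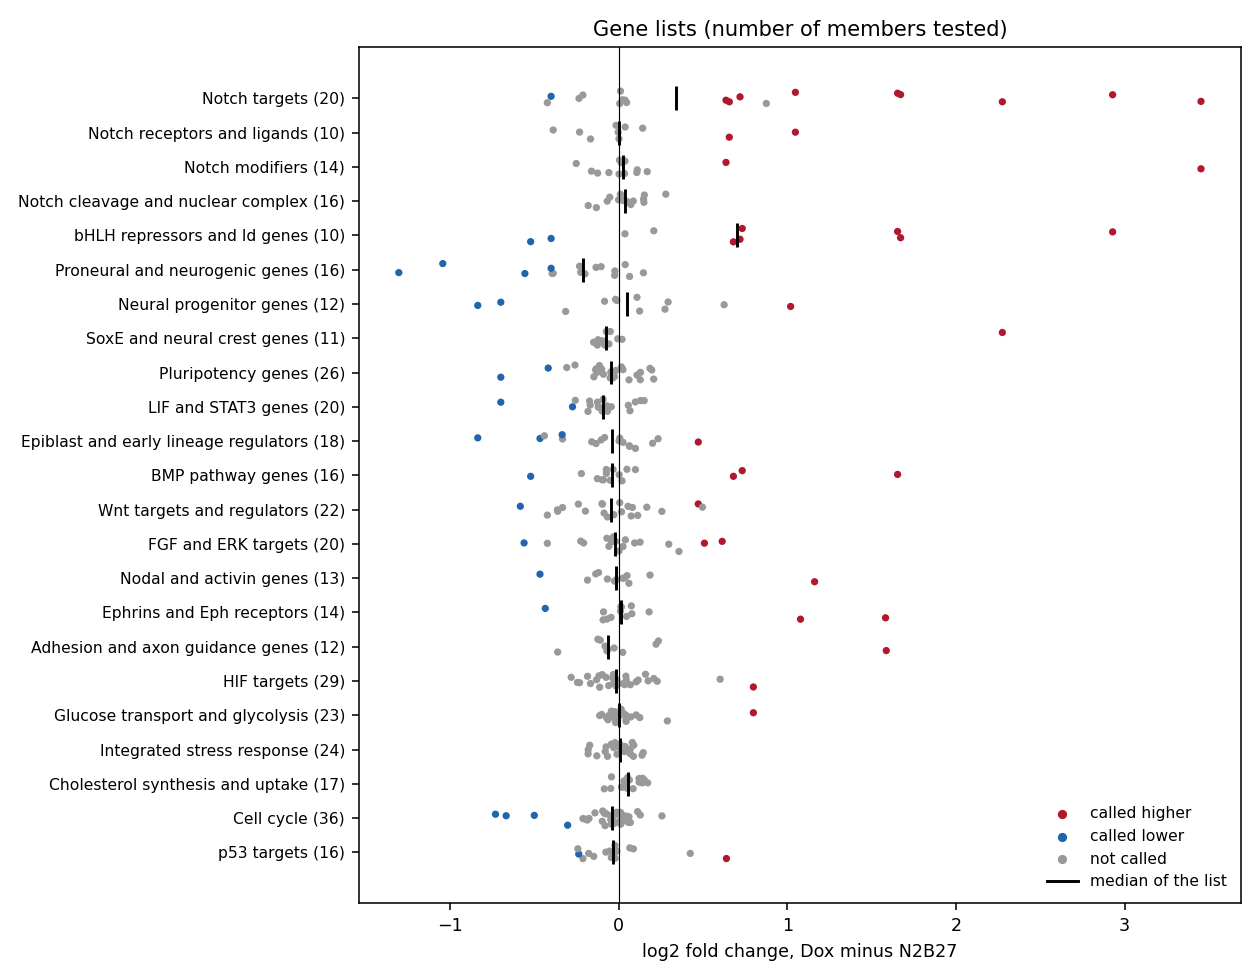
Log2 changes, Dox minus N2B27, of the measured members of 23 gene lists (number in brackets), red where called higher, blue where called lower and grey otherwise, with a black bar at the median of each list. The medians of Notch targets (0.34) and of bHLH repressors and Id genes (0.70) lie to the right, that of proneural and neurogenic genes (-0.21) to the left, and the others lie near 0; with members at background in 1 group at their bound, the median of Notch targets was 0.09 and that of proneural genes -0.12.

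A gene of glucose uptake changed without the rest of its pathway being called. Slc2a1 encodes the main facilitative glucose transporter of proliferating cells and is induced by hypoxia-inducible factor (HIF). Its levels were 14.03, 13.80, 13.89 and 13.91 in Dox samples, against 13.09, 13.15, 13.12 and 13.07 in N2B27 samples. The groups were tight and well apart (0.80 ± 0.07, adjusted p = 1.5e-07). It was the 1 call among 29 HIF targets (median -0.02) and among 23 genes of glucose transport and glycolysis (median 0.00). Vegfa stood at 0.04 ± 0.11 and Slc2a3 at 0.10 ± 0.07. Under 1% oxygen the same transporter read 14.67, 14.64, 14.60 and 14.62 in 1% O2+Dox samples, against 14.59, 14.80, 14.68 and 14.43 in 1% O2 samples, so the groups overlapped (0.01 ± 0.07). That change was below the one at ambient oxygen (difference -0.79 ± 0.10, adjusted p = 0.000941 in limma's interaction test). Both groups under 1% oxygen lay above the Dox samples kept at ambient oxygen. For 1% O2 minus N2B27, which shares the N2B27 samples and called 1958 genes (19.9%), the change of Slc2a1 was 1.52 ± 0.07.

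The contrast of 1% O2+Dox with 1% O2 uses 8 other samples and measures the same treatment again. Both contrasts come from the same fit and share each gene's estimate of spread and replicate block, so their calls are not independent. The contrast under 1% oxygen called 143 genes (1.46% of 9826), 72 higher and 71 lower. Of the 100 genes raised at ambient oxygen 97 were positive there, beside 47.7% of all genes, and 55 were called higher, beside 0.733%. Of the 70 genes lowered at ambient oxygen 65 were negative, where 47.7% of all genes were positive. Of the same 70, 41 were called lower, beside 0.723% of all genes. Nrarp changed by 2.89 ± 0.19, Hes5 by 2.73 ± 0.22, Sox9 by 1.68 ± 0.14 and Hoxa5 by -0.91 ± 0.09 under 1% oxygen. The 3 raised genes with the opposite sign were Capn5, Niban2 and Tnnt2 (-0.02, -0.06 and -0.05), and those among the lowered genes were 6430571L13Rik, Artn, Mapk1ip1, Nlrp1a and Zbtb10. The changes were smaller under 1% oxygen for 89 of the 100 rises (median 0.57 at ambient oxygen and 0.43 under 1% oxygen) and for 52 of the 70 falls (medians -0.41 and -0.33). The genes were picked for their change at ambient oxygen, which favours larger values there, so the sizes are given as a description.

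The effect differed between oxygen levels for 2 of 9826 genes (0.0204%), Slc2a1 and Ccdc160, with 399 (4.06%) at an unadjusted p under 0.05. Ccdc160 encodes a coiled-coil protein. It stood at 7.94, 7.81, 8.04 and 8.01 in Dox samples, against 8.75, 8.80, 8.80 and 8.70 in N2B27 samples, with no overlap (-0.81 ± 0.06, adjusted p = 1.19e-08). Under 1% oxygen its change was -0.28 ± 0.06 (adjusted p = 0.0224), a difference between effects of 0.54 ± 0.09 (adjusted p = 0.0267). That difference lost its call on 6 of 8 omissions of single samples, while the difference at Slc2a1 kept its call on all 8. Within replicates 1 and 2, and within replicates 3 and 4, neither kept it (adjusted p of 0.556 and 0.852 for Slc2a1). Efna1 changed by 1.58 ± 0.12 at ambient oxygen, beside 0.73 ± 0.12 under 1% oxygen. Lmod1, a muscle actin nucleator named after its values were seen, changed by 0.93 ± 0.13 at ambient oxygen and stood at 0.03 ± 0.13 under 1% oxygen. Neither of these differences passed (adjusted p = 0.11 each).

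**Figure D5:**
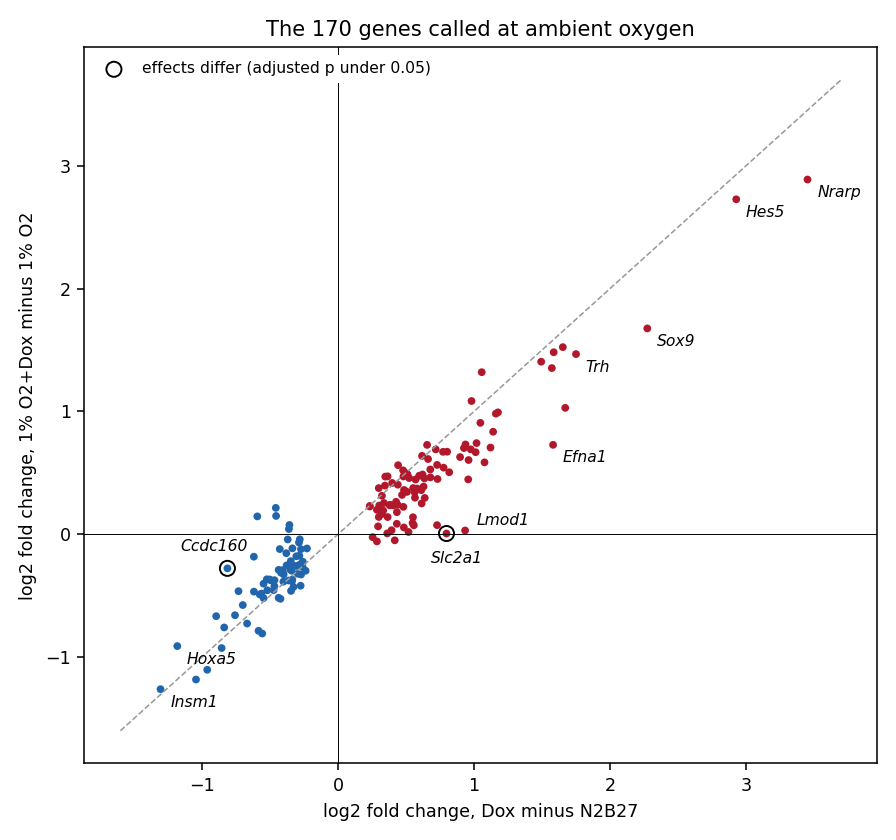
The 170 genes called at ambient oxygen, with the log2 change of Dox minus N2B27 on the x axis and of 1% O2+Dox minus 1% O2 on the y axis; the dashed line marks equal changes and circles mark the 2 genes whose effects differed. Most points lie in the upper right and lower left parts of the plane; Slc2a1 sits at 0.80 at ambient oxygen and 0.01 under 1% oxygen, and Ccdc160 at -0.81 and -0.28.

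DAPT is known to inhibit the cleavage that frees Notch, but whether it did so in these cells was not measured. Its contrast shares the N2B27 samples with that of Dox, so its values are only set side by side. Limma called 0 of 9826 genes for DAPT minus N2B27, with 564 (5.74%) at an unadjusted p under 0.05. With DAPT, Nrarp stood at -0.16 ± 0.19, Hey1 at -0.21 ± 0.16, Hes1 at -0.03 ± 0.08 and Sox9 at 0.16 ± 0.14. Lefty2 changed by 1.16 ± 0.17 with Dox and stood at -0.54 ± 0.17 with DAPT (adjusted p = 0.787), and Hoxa5 changed by -1.18 ± 0.09 with Dox and stood at -0.10 ± 0.09 with DAPT.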

How the data were processed

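Total RNA of mouse ES cells was measured on 30 Illumina BeadChip arrays of 28 samples, 4 in each of 7 groups. The deposited table holds 1 intensity per probe and array, not normalized per the file headers; BeadStudio is named in the submitters' processing notes. On each array 27.2% to 29.9% of the intensities were below 0, so a background had been subtracted, and no detection p-values were given. A second deposited table of intensities, the authors' processed values with a floor of 50 (on the first array 99.96% of them equalled the signal or that floor), served as an alternative.

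Intensities were corrected with normexp (offset 0), put on the log2 scale and quantile normalized in limma 3.58.1 (R 4.3.3). The repeat arrays of Dox samples 3 and 4 were averaged. Of 24611 probes, 20983 carried 1 gene symbol, 1 several and 3627 none, and 20967 symbols were updated through Entrez numbers. Named probes above their sample's median in at least 4 samples were kept (12279), and the probe with the highest mean stood for each of 9826 genes, of which 1949 had another such probe. The model had a mean per group and the replicate number as a block over all 28 samples (18 residual degrees of freedom), with two-sided tests and Benjamini-Hochberg adjustment over all 9826 genes. Every adjusted p in the text is limma's from this model unless another setting is named. Deviations of Dox and N2B27 samples from their group means correlated, over genes, at 0.808, 0.816, 0.82 and 0.816 for the same replicate number. For different numbers the values were 0.549 and 0.643 within replicates 1 and 2, and 0.681 and 0.686 within replicates 3 and 4. Between these sets they were -0.696 to -0.762. The match was thus highest for the same number, while part of it follows the split between the sets. The numbers, taken from the sample titles, are used as pairs.

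Background was the 98th percentile of the size of an array's own negative intensities (29.3 to 41.6 units), and 47.7% to 49.9% of probes lay above it. Where 0 of 4 samples of a group did, a bound ("at least") is given for a named gene, while the plots and list medians use fitted values. A bound compares group means and carries no standard error. The medians of Notch targets and proneural genes, which moved most with bounds in place of fitted values, are given both ways. Arrays have no read depth, so their number limits the precision. Mean signal was 674.5 to 826.9 on Dox arrays and 716.6 to 826.8 on N2B27 arrays. Named genes are the 15 largest called rises and the 15 largest called falls with the same sign in 4 of 4 pairs and at least 3 of 4 samples of the brighter group above background, every called member of a list, and Notch1, Hes1, Hes5, Hey1, Nrarp, Pou5f1, Nanog and Sox2; other genes were named after their values were seen. The 25 lists hold 536 genes, 373 of them measured. Members and lists were chosen with earlier results of these data known, so lists are described by counts and medians only. The script was tested on simulated data. Promoter windows come from RefSeq (GRCm38.p6), with 7964 of 9826 genes matched by symbol.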

Additional observations from a re-analysis of the deposited data

Results flagged for a closer look

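Among 114 groups of 4 samples tested with Dixon's rule, 9 levels of named genes lay apart, and chance flags about 1 in 20 groups. The same replicate number stood apart in both groups for 3 genes. Efnb1 read 11.12 in Dox replicate 1 (others 10.15 to 10.30) and 10.32 in N2B27 replicate 1 (others 8.92 to 9.11). Cdkn1c read 11.62 in Dox replicate 1 (others 10.96 to 11.01) and 11.93 in N2B27 replicate 1 (others 11.27 to 11.33). Hoxa5 read 6.845 in Dox replicate 2 (others 8.001 to 8.18) and 8.054 in N2B27 replicate 2 (others 9.16 to 9.35). Single N2B27 samples stood apart for Sox9 (7.346 in replicate 1, others 7.02 to 7.03), Higd1b (5.32 in replicate 3, others 5.82 to 5.89) and Wnt8a (9.247 in replicate 1, others 7.38 to 7.62).

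The change with doxycycline differed between oxygen levels for Slc2a1, with a difference of -0.791838 on the log2 scale (1% oxygen minus ambient oxygen), and for Ccdc160, with a difference of 0.535603.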

How the results depend on the processing

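The replicate block decided most of the count: with no replicate block 33 genes were called for Dox against N2B27 in place of 170, 19 in place of 143 under 1% oxygen, and 1 in place of 2 for the difference between oxygen levels, and 33 of the 54 named calls ended. The difference at Slc2a1 kept its call there (adjusted p = 0.0397). Only the 8 samples of the comparison, with the block, gave 111 genes, of which 95 were among the 170, so 75 of the 170 lost their call. Within replicates 1 and 2 the 3 counts were 66, 24 and 1, and within replicates 3 and 4 they were 38, 24 and 0, with fewer samples in each fit. The change of Sox2, not called in any of these fits, turned to -0.036 within replicates 1 and 2. Leaving out single samples gave 117 (without Dox replicate 1) to 151 genes, 133 to 143 under 1% oxygen and 1 to 2 for the difference between oxygen levels, and 42 of 54 named calls held on all 8 omissions. The difference between oxygen levels was called for 1 gene with no filter on dim probes and with first arrays only, and for 5 with an intensity trend and robust spread. The count of 170 became 148 with a random replicate block, 153 with median scaling, 186 at an offset of 50, 147 with the authors' values, 133 with no filter, 170 with the mean of probes, 189 with trend and robust spread, and 178 or 170 with first or second arrays. The mean of probes added a call of Nanog (0.26, adjusted p = 0.0245). With the authors' values 10 named calls ended, those of Insm1, Olig3, Gsx1, Has3, Higd1b, Cdx1 (0.675), Fst (0.618), En1 (0.341), Egr1 (0.106) and Junb (0.0924). Only the 8 samples ended 11 named calls, among them Gadd45g (0.0514), Dtx1 (0.0520), Hes6 (0.0520) and Klf2 (0.0502), and the random block ended 8, Fst (0.247) and Wnt8a (0.213) the farthest. No other cause was tested.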
